A study of Homo sapiens with 8 samples.

Results

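The genes described here are 10 genes of the endoplasmic reticulum (ER) chaperones and the unfolded protein response, chosen by gene symbol from 19124 genes measured by RNA sequencing in 2 established human colorectal cancer lines, HCT116 and HT29. HSPA5, HSP90B1, HYOU1, DNAJB9, SDF2L1 and PDIA4 fold proteins in the ER lumen, HERPUD1 serves their degradation, and ERN1, ATF6 and XBP1 carry the stress signal to the nucleus. Both lines were transfected with 15 nM of an siRNA against RPL9, RPL17 or RPL27, proteins of the large ribosomal subunit, or with a negative control siRNA (NC), and RNA was taken after 48 h. The 8 groups, HCT116 RPL9, HCT116 RPL17, HCT116 RPL27, HCT116 NC, HT29 RPL9, HT29 RPL17, HT29 RPL27 and HT29 NC, hold 1 library each, so the spread between cultures of 1 line under 1 siRNA was not measured. All 10 genes were found in all 8 libraries, and all 10 passed the filter of a mean of at least 1 RPKM (reads per kilobase of exon, scaled to the library's mapped reads), which 14281 genes passed.

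The ER folds secreted and membrane proteins, and its chaperones bind unfolded chains until they mature. When unfolded chains build up, 3 sensors in the ER membrane start the unfolded protein response: IRE1, encoded by ERN1, splices the mRNA of XBP1; ATF6 is cut and travels to the nucleus; and PERK, encoded by EIF2AK3, slows translation and favours ATF4. XBP1 and ATF6 then raise transcription of the chaperone and degradation genes through short elements in their promoters, among them the ER stress response element. In the colon the response is best known from secretory cells of the epithelium.

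Those promoter elements were searched for in all 10 members and found in 6. The promoters of HYOU1 and of 4 genes that were lower in every RPL siRNA library are shown with the elements in capitals. Not shown are PDIA4, also lower in every RPL siRNA library but without these elements, and SDF2L1, which held an element but was not lower in every library. The sequences are RefSeq promoters of GRCh38.p14, 300 bases around the annotated start of each gene, matched by symbol for 10 of 10 genes; they are printed from 5′ to 3′ on the gene's strand. Both strands were searched for 3 patterns, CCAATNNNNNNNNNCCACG (ER stress response element), ATTGGNCCACG (element II) and TGACGTGG (unfolded protein response element).
HSPA5 promoter, chr9:125241294-125241593, minus strand: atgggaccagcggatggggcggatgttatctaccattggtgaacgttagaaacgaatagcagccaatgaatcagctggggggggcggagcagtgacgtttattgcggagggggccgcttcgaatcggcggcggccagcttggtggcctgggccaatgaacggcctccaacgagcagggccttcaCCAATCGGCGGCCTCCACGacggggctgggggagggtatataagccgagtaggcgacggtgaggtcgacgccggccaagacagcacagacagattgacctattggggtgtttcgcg
HSP90B1 promoter, chr12:103930160-103930459, plus strand: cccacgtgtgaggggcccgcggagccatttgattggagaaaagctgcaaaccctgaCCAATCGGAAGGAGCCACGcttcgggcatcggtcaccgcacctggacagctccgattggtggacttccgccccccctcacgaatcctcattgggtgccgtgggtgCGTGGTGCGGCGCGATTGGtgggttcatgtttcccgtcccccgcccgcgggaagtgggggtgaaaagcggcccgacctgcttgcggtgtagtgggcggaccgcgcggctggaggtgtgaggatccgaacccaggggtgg
XBP1 promoter, chr22:28800520-28800819, minus strand: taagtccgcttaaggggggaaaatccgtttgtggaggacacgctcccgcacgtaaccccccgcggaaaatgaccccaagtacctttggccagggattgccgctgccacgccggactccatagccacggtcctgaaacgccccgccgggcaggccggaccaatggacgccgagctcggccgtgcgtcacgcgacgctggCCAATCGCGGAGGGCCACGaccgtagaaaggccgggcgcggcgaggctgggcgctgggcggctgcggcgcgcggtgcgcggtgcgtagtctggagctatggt
HERPUD1 promoter, chr16:56931892-56932191, plus strand: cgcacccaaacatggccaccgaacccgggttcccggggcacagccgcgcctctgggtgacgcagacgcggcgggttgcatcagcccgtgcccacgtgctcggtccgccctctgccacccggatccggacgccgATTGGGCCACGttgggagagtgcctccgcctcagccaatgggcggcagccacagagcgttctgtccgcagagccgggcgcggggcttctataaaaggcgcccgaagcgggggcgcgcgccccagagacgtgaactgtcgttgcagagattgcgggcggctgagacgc
HYOU1 promoter, chr11:119057156-119057455, minus strand: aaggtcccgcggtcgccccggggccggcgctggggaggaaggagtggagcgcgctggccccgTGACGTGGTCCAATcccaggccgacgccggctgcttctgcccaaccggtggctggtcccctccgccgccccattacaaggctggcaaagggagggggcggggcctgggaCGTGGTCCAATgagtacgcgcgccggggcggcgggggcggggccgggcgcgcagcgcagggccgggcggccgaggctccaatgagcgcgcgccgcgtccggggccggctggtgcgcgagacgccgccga

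The ER stress response element was found in HSPA5 at -66 to -48, in XBP1 at -52 to -34, and in HSP90B1 at -194 to -176 and, on the other strand, at -89 to -71, counted in bases from the start. Element II was found in HERPUD1 at -117 to -107, in HYOU1 at 2 places, both on the other strand, and in SDF2L1 as CGTGGACCAAT. In HYOU1 the first element II overlaps the only match to the unfolded protein response element among the 10 genes. Any of the 3 patterns was found in 6 of the 10 genes. By promoter it was found in 6 of the members' 12, against 0.857% of 35116 promoters of the same length. The members were chosen as genes of this response, so the comparison is a description and not a test. The single patterns were found in 0.0769%, 0.0541% and 0.729% of those 35116. XBP1 and PDIA4 have 2 promoters each, and the second of XBP1, not shown, held none of the 3. ATF6, ERN1, DNAJB9 and PDIA4 had none of the 3. The shared core CCACG, which is part of the first 2 patterns, was found in 8 of 10 genes and in 38.1% of all promoters. A match describes the letters in these windows and not binding of a factor.

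XBP1 has another sequence feature, the piece that IRE1 removes from its mRNA. Comparison of its GENCODE v29 transcripts (GRCh38, chromosome 22) found 26 bases, printed in capitals with 30 bases on each side, that some transcripts hold and others lack; of 7 placements that give the same spliced sequence, the one cut as IRE1 is known to cut is shown.
XBP1 unspliced: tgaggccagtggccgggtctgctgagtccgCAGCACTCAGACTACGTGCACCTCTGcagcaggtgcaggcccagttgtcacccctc
XBP1 spliced: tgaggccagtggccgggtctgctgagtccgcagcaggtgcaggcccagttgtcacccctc
The deposited value carries the RefSeq name of the transcript without the 26 bases. It is 1 value per gene, so the ratio of the spliced to the unspliced form was not measured.

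The libraries were checked before the members were compared. The targeted gene of each RPL siRNA was the lowest of the 4 libraries of its line, at 26.7% to 38.5% of NC in HCT116 and at 13.7% to 18.7% in HT29. Depth was estimated from single-exon genes at a rough 20.7 to 26.5 M (mega) reads per library, and 13.1% to 15.7% of genes had a value of 0. Because the RPKMs appear to be sums over exons, levels of different genes are not compared. Of 10 markers of colon epithelium 9 had a mean of at least 1 RPKM, while CDX1 did not; the defining markers PTPRC, CD14, PECAM1, CDH5, COL1A2, DCN and LUM all had means under 1 RPKM. The sums over the marker lists were 29129 to 50376 RPKM in the RPL siRNA libraries and 19412 to 44617 RPKM in NC for epithelium, and 254 to 439 RPKM in the RPL siRNA libraries and 335 to 378 RPKM in NC for fibroblasts. For leukocytes they were 44.8 to 3035 RPKM in the RPL siRNA libraries and 81.6 to 1865 RPKM in NC, of which LYZ, also a gene of secretory gut epithelium, held up to 3002 RPKM in HT29. For endothelium they were 0.50 to 10.1 RPKM in the RPL siRNA libraries and 2.64 to 5.50 RPKM in NC. The HT29 NC library stood apart from the others: over 14180 genes, its deviation from the other 7 correlated with transcript length at -0.53 (Spearman), against 0.12 to 0.22 for each of the others. Every HT29 difference from NC rests on that library, so differences are given as deposited and with each library's length trend removed.

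HSPA5, HSP90B1, PDIA4, HERPUD1 and XBP1 were lower than NC in all 6 RPL siRNA libraries, and HERPUD1 stood lowest of these 5, at 35.7% to 46.7% of NC. HYOU1, ATF6, DNAJB9 and, by little, ERN1 were lower than NC in HCT116 and higher than NC in HT29, and SDF2L1 was far lower than NC in HT29 and close to it in HCT116. Over all genes tested, 13% were lower in all 6 libraries and 18% higher in all 6, against 5 and 0 of the 10 members; 12.6% were lower in the 3 HCT116 and higher in the 3 HT29 libraries, against 4 of 10. The median of the members' mean difference was -0.48 on the log2(RPKM + 1) scale, against 0.10 for all genes. None of the 10 passed limma's test of the mean RPL siRNA effect at an adjusted p of 0.05, and 0.168% of all genes did. At an unadjusted p of 0.05, 5 members were lower and 0 higher, beside 1385 lower and 2121 higher of 14281 genes, 24.6% in either direction.

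**Figure D1:**
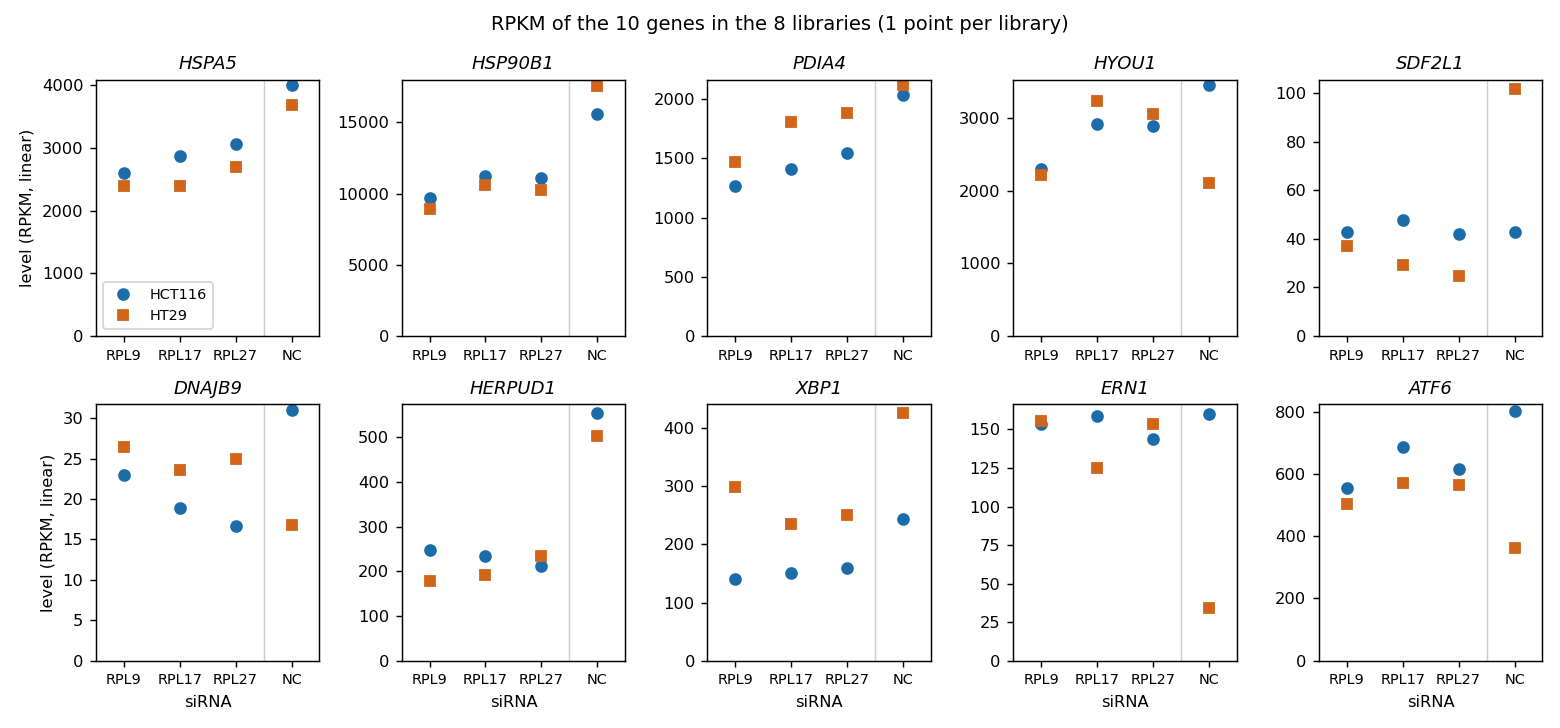
Level of each gene (linear RPKM, axes from 0) under RPL9, RPL17, RPL27 and NC siRNA in HCT116 (circles) and HT29 (squares), 1 point per library and no error bars because no group has a replicate. HSPA5, HSP90B1, PDIA4, HERPUD1 and XBP1 lie below NC in both lines, while ERN1 of HT29 lies at 125 to 156 RPKM under the RPL siRNAs and at 33.9 RPKM under NC.

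HSPA5 encodes BiP, the HSP70 chaperone of the ER lumen that also holds the 3 sensors inactive. It stood at 2603, 2872 and 3070.2 RPKM under RPL9, RPL17 and RPL27 siRNA in HCT116, against 4009 RPKM under NC, and at 2389, 2399.7 and 2690.4 RPKM in HT29, against 3691 RPKM under NC. All 6 RPL siRNA libraries were below both NC libraries. Of all genes, 13% were below the NC of their own line in all 6. The share below both NC libraries was not computed, here or for the genes that follow. In bulk RNA a lower level in each cell and fewer cells that express a gene cannot be told apart. Averaged over the RPL siRNAs, the difference was -0.53 (log2; SE 0.12; adjusted p = 0.097), and -0.76 (SE 0.16; adjusted p = 0.043) with the length trend removed.

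HSP90B1 encodes GRP94, the HSP90 chaperone of the ER, and has processed pseudogenes; the sources used here do not give how shared reads were assigned. It stood at 9722, 11251 and 11126 RPKM in the 3 RPL siRNA libraries of HCT116, in the order RPL9, RPL17, RPL27, against 15572 RPKM under NC, and at 8912, 10634 and 10278 RPKM in HT29, against 17567 RPKM under NC. All 6 RPL siRNA libraries were again below both NC libraries, and RPL9 was the lowest library in each line. GRP94 mRNA thus differed by -0.68 (log2; SE 0.12; adjusted p = 0.078), and -0.77 (adjusted p = 0.033) with the length trend removed.

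PDIA4, a protein disulfide isomerase that works with HSPA5 and HSP90B1, stood at 1265, 1412 and 1549.6 RPKM under RPL9, RPL17 and RPL27 siRNA in HCT116, against 2034 RPKM under NC. In HT29 it stood at 1472, 1809 and 1883 RPKM, against 2122 RPKM under NC. All 6 libraries were below both NC libraries, by less in HT29 under RPL17 and RPL27 siRNA, where 85.2% and 88.7% of NC were left. Its mean difference was -0.42 (log2; SE 0.13; adjusted p = 0.15), and -0.52 (adjusted p = 0.040) with the length trend removed.

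HYOU1, an HSP70-like partner that exchanges the nucleotide of HSPA5, stood at 2299.5, 2914 and 2892 RPKM under RPL9, RPL17 and RPL27 siRNA in HCT116, against 3457 RPKM under NC. In HT29 it stood at 2219, 3238 and 3051 RPKM, against 2105 RPKM under NC. RPL siRNA libraries were thus below NC in HCT116 and above it in HT29, although their own ranges overlapped between the lines. For HYOU1 the mean difference was 0.02 (log2; SE 0.20; adjusted p = 0.95), and it turned to -0.29 (adjusted p = 0.13) with the length trend removed, to -0.18 (adjusted p = 0.51) with median-centred libraries and to -0.36 (adjusted p = 0.036) without the HT29 NC library.

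SDF2L1 is a small ER protein that joins HSPA5 and its J-domain partners in a chaperone complex. It stood at 42.6, 47.9 and 41.9 RPKM under RPL9, RPL17 and RPL27 siRNA in HCT116, against 42.9 RPKM under NC, and at 37.0, 29.2 and 24.7 RPKM in HT29, against 101.6 RPKM under NC. The RPL siRNA libraries of HCT116 surround their NC, while those of HT29 were at 24.3% to 36.4% of it. Over both lines it differed by -0.85 (log2; SE 0.43; adjusted p = 0.26), by -0.61 (adjusted p = 0.26) with the length trend removed, and by 0.04 (adjusted p = 0.94) without the HT29 NC library.

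DNAJB9, a J-domain cochaperone of HSPA5 that helps keep IRE1 off, stood at 23.0, 18.8 and 16.7 RPKM under RPL9, RPL17 and RPL27 siRNA in HCT116, against 31.0 RPKM under NC. In HT29 it stood at 26.4, 23.6 and 25.0 RPKM, against 16.8 RPKM under NC. RPL siRNA libraries were below NC in HCT116 and above it in HT29. Their own ranges, 16.7 to 23.0 RPKM in HCT116 and 23.6 to 26.4 RPKM in HT29, did not overlap. Over both lines DNAJB9 differed by -0.05 (log2; SE 0.34; adjusted p = 0.93), by -0.13 (adjusted p = 0.81) with the length trend removed, and by -0.65 (adjusted p = 0.17) without the HT29 NC library.

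HERPUD1, a membrane protein that organises the complex which exports misfolded ER proteins for degradation, stood at 248, 234 and 211 RPKM under RPL9, RPL17 and RPL27 siRNA in HCT116, against 555 RPKM under NC. In HT29 it stood at 179, 193 and 235 RPKM, against 503 RPKM under NC. HERPUD1 was the only one of the 10 genes that was lower by at least 1 (log2) in all 6 libraries, a size that 0.518% of all genes reached. The mean difference was -1.29 (SE 0.18; adjusted p = 0.066), -1.23 (adjusted p = 0.019) with the length trend removed, and -1.26 (adjusted p = 0.017) without the HT29 NC library.

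XBP1, the transcription factor whose mRNA IRE1 splices, stood at 140, 151 and 160 RPKM under RPL9, RPL17 and RPL27 siRNA in HCT116, against 243.5 RPKM under NC. In HT29 it stood at 299, 235 and 251 RPKM, against 426 RPKM under NC. All 6 libraries were below the NC of their own line, at 55.2% to 70.1% of it, while the RPL9 and RPL27 libraries of HT29 were above the NC of HCT116. The mean difference was -0.70 (log2; SE 0.18; adjusted p = 0.11), and -0.62 (adjusted p = 0.074) with the length trend removed.

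ATF6, the sensor that becomes a transcription factor when cut, stood at 555, 687 and 615 RPKM under RPL9, RPL17 and RPL27 siRNA in HCT116, against 801 RPKM under NC. In HT29 it stood at 503, 571.5 and 563 RPKM, against 361 RPKM under NC. The mean difference was 0.11 (log2; SE 0.24; adjusted p = 0.80), and it turned to -0.47 (adjusted p = 0.082) with the length trend removed and to -0.09 (adjusted p = 0.77) with median-centred libraries. The other sensor, ERN1, stood at 154, 159 and 144 RPKM in the 3 RPL siRNA libraries of HCT116, again RPL9, RPL17 and RPL27, against 160.0 RPKM under NC. In HT29 ERN1 stood at 156, 125 and 154 RPKM, against 33.9 RPKM under NC. Of these 8 values, 7 lay between 125 and 160.0 RPKM, and the HT29 NC library was the exception. The mean difference of ERN1 was 0.99 (log2; SE 0.47; adjusted p = 0.25), 0.39 (adjusted p = 0.32) with the length trend removed, and -0.08 (adjusted p = 0.82) without the HT29 NC library.

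**Figure D2:**
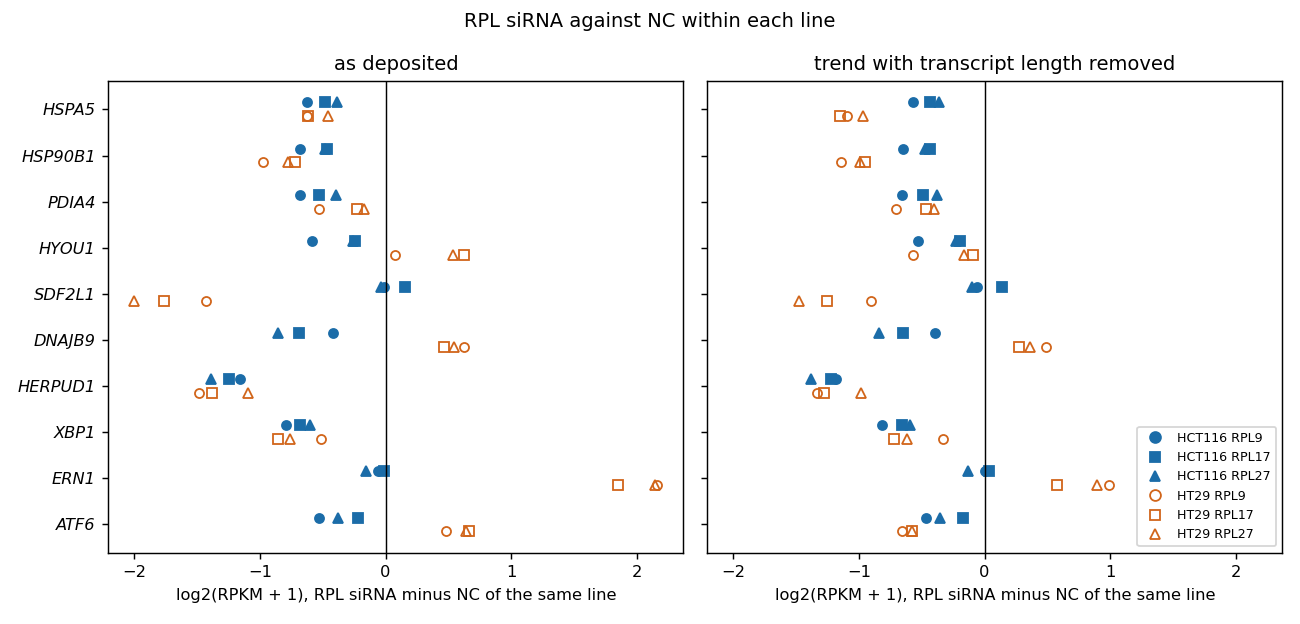
Difference of each RPL siRNA library from the NC library of its line in log2(RPKM + 1), with 1 point per library, as deposited (left) and with each library's length trend removed (right); filled symbols are HCT116 and open symbols HT29. As deposited, 5 genes lie left of 0 in all 6 libraries, and 7 do with the trend removed, when ATF6 and HYOU1 of HT29 move to the left.

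Removal of the length trend brought 7 of 10 members below NC in all 6 libraries, against 16.7% of all genes, and the median of their mean differences to -0.56 against 0.00. HSPA5, HSP90B1, PDIA4 and HERPUD1 then fell past the threshold, 4 of 10 members beside 3.16% of all genes called lower. Without the HT29 NC library, where the mean difference equals that within HCT116, the same 4 and HYOU1 fell, 5 of 10 beside 6% of all genes. The HCT116 libraries fitted alone, with the same differences and fewer libraries to estimate the spread, called 0 members and 0% of all genes (limma; HSPA5 adjusted p = 0.17, HERPUD1 adjusted p = 0.13), and at an unadjusted p of 0.05 they gave 5 members lower, beside 18.3% of all genes in either direction. The HT29 libraries fitted alone called 7 members, beside 35.1% of all genes. Without the HCT116 NC library instead, the difference is that within HT29, and 9 of 10 members passed: 6 were lower, among them HSPA5 at -0.57, HERPUD1 at -1.32 and SDF2L1 at -1.73, and ATF6, ERN1 and HYOU1 were higher. In that fit 49% of all genes passed, so 9 of 10 is read against a background of that height. The fits that leave out 1 NC library rest on a single NC library, whose own spread does not enter. Their spread comes from the RPL siRNA libraries, with the lines as replicates. The fits of 1 line alone take 3 different siRNAs as replicates against a single NC library.

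**Figure D3:**
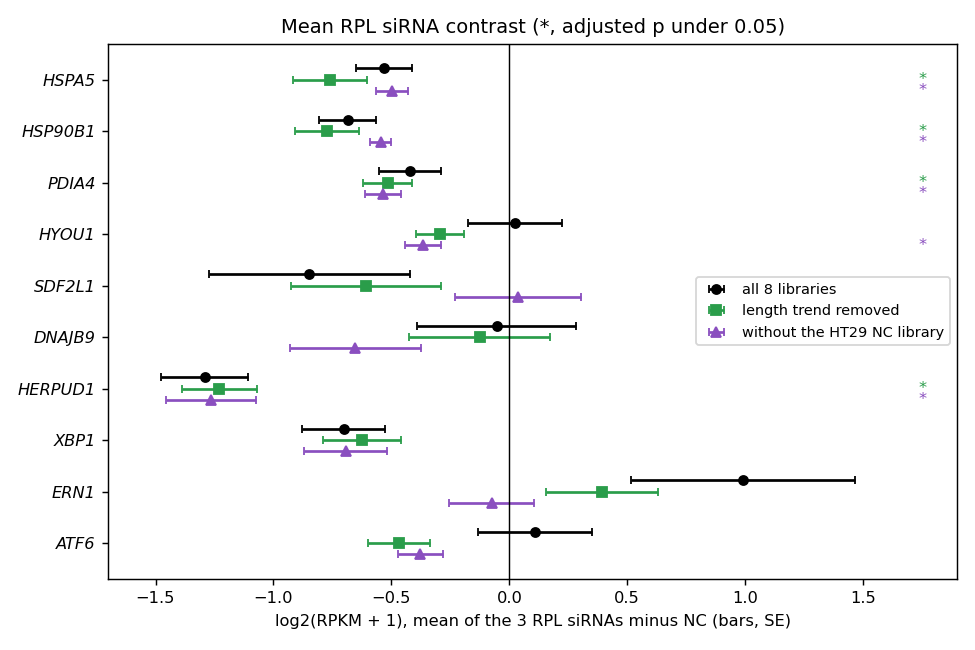
Mean difference of the 3 RPL siRNAs from NC in log2(RPKM + 1) with its SE from limma, from all 8 libraries, with the length trend removed and without the HT29 NC library; a star marks an adjusted p under 0.05. HSPA5, HSP90B1, PDIA4, HERPUD1 and XBP1 lie below 0 in all 3 fits, from -0.42 to -1.29 with all libraries, while ERN1, ATF6, HYOU1 and SDF2L1 move across 0.

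The effect of the length trend differed by gene. In HT29 the mean difference as deposited minus that with the trend removed was 1.23 for ERN1, 1.20 for ATF6, 0.68 for HYOU1 and 0.50 for HSPA5, whose reference transcripts have 7876, 7496, 4529 and 3908 bases, and -0.52 for SDF2L1, with 865 bases. In HCT116 the same shift lay, for all 10 genes, between -0.05 and 0.04. With it removed, the mean HT29 difference was 0.82 for ERN1, -0.60 for ATF6, -0.27 for HYOU1, -1.07 for HSPA5 and -1.21 for SDF2L1. ERN1 and DNAJB9, at 0.38, were the members left above NC in HT29.

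**Figure D4:**
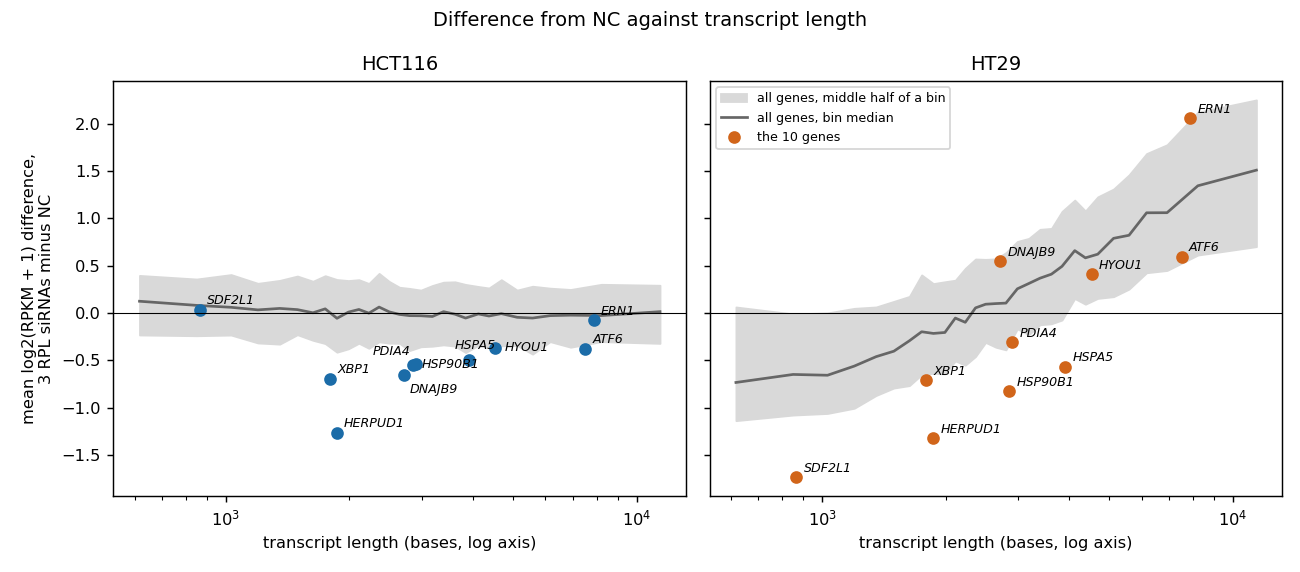
Mean log2(RPKM + 1) difference of the 3 RPL siRNA libraries from NC against transcript length (log axis), with the median of all genes per length bin as a line, its quartiles as a band and the 10 genes as points, in HCT116 and HT29. In HCT116 the line is flat and 8 of the 10 points lie at -0.36 or lower, whereas in HT29 the line rises with length, with ERN1 at 2.05 and SDF2L1 at -1.73 at either end.

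Each RPL siRNA was also compared with NC on its own, with the lines as replicates and the same NC libraries in all 3 comparisons. No member passed for RPL9, RPL17 or RPL27 siRNA, where 0.007%, 0.014% and 0% of all genes passed. At an unadjusted p of 0.05, 5, 4 and 4 members were lower and none higher. Of all 14281 genes, 1253, 923 and 1004 were lower by that measure, and 20.4%, 15.7% and 16.7% passed in either direction. HERPUD1 differed by -1.32 under RPL9, -1.31 under RPL17 and -1.24 under RPL27 siRNA (log2; SE 0.22 each), with adjusted p of 0.10, 0.19 and 0.13. HSP90B1 differed by -0.83, -0.60 and -0.63 (SE 0.15 each) and HSPA5 by -0.63, -0.55 and -0.42 (SE 0.15 each) in that order. After removal of the length trend, HSP90B1 at -0.90, HERPUD1 at -1.26 and PDIA4 at -0.68 passed for RPL9 siRNA, beside 1.52% of all genes called lower. HERPUD1 at -1.18 passed for RPL27 siRNA, beside 0.987%, and no member for RPL17 siRNA, beside 0.0846%.

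RPL9 siRNA gave the lowest of the 3 RPL siRNA libraries in both lines for HSPA5, HSP90B1, PDIA4, HYOU1 and ATF6, that is for 5 of 10 members and 16.9% of all genes. RPL17 siRNA did so for 0 members and 15.1% of all genes, and RPL27 siRNA for SDF2L1 and 17.1%. In the fit of all 8 libraries no member passed for any RPL siRNA against the other two, and 0% of all genes did for each of the 3; at an unadjusted p of 0.05 no member passed either, beside 4.84%, 3.63% and 4.21% of all genes. In the 6 RPL siRNA libraries alone, which leave NC out, HYOU1 was lower under RPL9 siRNA, with a difference of -0.42 (log2; SE 0.058; adjusted p = 0.046), the 1 member of 10 called beside 0.436% of all genes called lower. At an unadjusted p of 0.05, 5 members were lower and 0 higher under RPL9 siRNA in these libraries. Of 14217 genes, 1409 were lower and 1516 higher by that measure, 20.6% in either direction. HSP90B1 at -0.22 (adjusted p = 0.056), PDIA4 at -0.28 (adjusted p = 0.082), ATF6 at -0.20 (adjusted p = 0.21) and HSPA5 at -0.14 (adjusted p = 0.21) did not pass.

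Whether the RPL siRNA effect differed between the lines was tested with the 3 RPL siRNAs of a line taken as replicates. ERN1 at -2.13 (log2, HCT116 minus HT29; SE 0.29; adjusted p = 0.0024) and ATF6 at -0.97 (SE 0.23; adjusted p = 0.020) passed in 1 direction, where 16.8% of all genes did, and SDF2L1 at 1.77 (SE 0.41; adjusted p = 0.019) in the other, where 6.11% did. The median of this difference over all genes was -0.19. By size, ERN1 was higher than NC by at least 1 in all 3 RPL siRNA libraries of HT29, as were 16.3% of all genes, and SDF2L1 and HERPUD1 were lower by as much, as were 5.19%. Once the length trend was removed no member passed, beside 7.9% of all genes: ERN1 differed by -0.85 (adjusted p = 0.14), ATF6 by 0.27 (adjusted p = 0.47) and SDF2L1 by 1.21 (adjusted p = 0.12). At an unadjusted p of 0.05, 5 of the 10 passed in that fit, beside 25.3% of all genes. With the GC trend removed as well, HSPA5 at 0.75 (adjusted p = 0.042) and HSP90B1 at 0.73 (adjusted p = 0.042) passed, and ERN1, ATF6 and SDF2L1 did not. With median-centred libraries HSP90B1 passed at 0.72 (adjusted p = 0.024) and ATF6 did not, at -0.53 (adjusted p = 0.13), beside 24.8% of all genes called.

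Between the lines XBP1 was the member with the largest difference. Over the 4 siRNAs no member passed in HCT116 against HT29, where 3.61% of all genes did, and 1 passed at an unadjusted p of 0.05, beside 19.3% of all genes. XBP1 stood at -0.79 (log2; SE 0.15; adjusted p = 0.054), that is lower in HCT116. XBP1 passed with the length trend removed, at -0.66 (adjusted p = 0.041), the 1 member called beside 7.43% of all genes. In the 6 RPL siRNA libraries alone XBP1 at -0.79 (adjusted p = 0.0089), PDIA4 at -0.29 (adjusted p = 0.016) and HSPA5 at 0.19 (adjusted p = 0.038) passed, 3 of 10 beside 23.3% of all genes. HYOU1 at -0.06 (SE 0.055) and ERN1 at 0.08 (SE 0.13) were the nearest to equal levels in these 6 libraries.

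Other genes of the ER and of the unfolded protein response were read from 6 lists, none of which held a gene past the threshold for the mean RPL siRNA effect with all libraries. At an unadjusted p of 0.05 the lists had 3 higher and 8 lower of 28 folding factors of the ER lumen, 4 and 1 of 20 degradation genes (21 in the files, 1 of them under the filter), 2 and 2 of 23 translocation genes, 2 and 4 of 16 sensors and regulators, 2 and 5 of 11 genes of the PERK and ATF4 arm, and 1 and 0 of 11 cytosolic and mitochondrial relatives of the chaperones. Over all 14281 genes 2121 were higher and 1385 lower by that measure, 24.6% in all. With the length trend removed the folding factors had a median of -0.17, degradation 0.02, translocation -0.15, sensors and regulators -0.10, the PERK and ATF4 arm -0.44 and the relatives 0.00, beside 0.00 for all genes.

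Among the 28 folding factors with the length trend removed 5 fell and 0 rose, beside 3.16% of all genes lower and 2.7% higher. They were the disulfide isomerases PDIA3 (-0.76), PDIA5 (-0.80), PDIA6 (-0.58) and P4HB (-0.63) and the PDI-like ERP29 (-0.73). PDIA5 stood at 447, 495.5 and 448.5 RPKM under RPL9, RPL17 and RPL27 siRNA in HCT116, against 737 RPKM under NC, and at 315, 469 and 411 RPKM in HT29, against 828 RPKM under NC. As deposited the list's extremes were FKBP14, a prolyl isomerase, at 1.13 and UGGT1, the glucosyltransferase that tags misfolded glycoproteins, at 0.93, and CRELD2 at -0.94 and ERP29 at -0.91, none past the threshold. Without the HT29 NC library these 4 stood at 0.75, -0.28, -0.17 and -0.52. UGGT1 was below NC in HCT116 and above it in HT29, at 1448 to 1736 RPKM against 351 RPKM under NC. In degradation the extremes were EDEM3, a mannosidase, at 1.51 and FAF2 at 1.08, and the lectin ERLEC1 at -0.55 and EDEM2 at -0.37. No degradation gene passed the threshold as deposited or with the length trend removed. The values of these 4 were 0.97, 0.77, -0.46 and -0.29 with the length trend removed, and 0.44, 0.35, -0.73 and -0.06 without the HT29 NC library. In translocation they were SEC61A1, the channel's main subunit, at 0.77 and SEC62 at 0.72, and the small channel subunits SEC61G at -0.63 and SEC61B at -0.62; SEC61A1 rose by 0.58 with the length trend removed. Without the HT29 NC library SEC61A1 stood at 0.42, SEC62 at 0.22, SEC61G at -0.14 and SEC61B at -0.04.

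The PERK and ATF4 arm held the gene with the largest difference in the 6 lists. CHAC1, a glutathione-degrading enzyme and target of ATF4, stood at 19.2, 33.8 and 27.6 RPKM under RPL9, RPL17 and RPL27 siRNA in HCT116, against 150.5 RPKM under NC, and at 21.6, 16.9 and 20.2 RPKM in HT29, against 212 RPKM under NC. All 6 lay far below both NC libraries, and the difference was -2.93 (log2; SE 0.33; adjusted p = 0.058). With the length trend removed CHAC1 at -2.77, DDIT3 (CHOP) at -0.91 and DDIT4 at -0.85 fell, and PPP1R15A, which helps reverse the block that PERK sets on translation, rose by 1.15, 4 of 11 genes beside 5.86% of all genes. DDIT3 stood at 145, 104 and 182 RPKM in HCT116 in the same order of siRNAs, against 255 RPKM under NC, and at 161, 70.5 and 135 RPKM in HT29, against 308 RPKM under NC. ATF3, another factor of this arm, stood at 163, 109 and 46.4 RPKM under RPL9, RPL17 and RPL27 siRNA in HCT116, against 67.9 RPKM under NC, and at 179, 109.6 and 37.1 RPKM in HT29, against 51.5 RPKM under NC. It was above NC under RPL9 and RPL17 siRNA and below it under RPL27 siRNA in both lines, so its mean of 0.63, not past the threshold, joins opposite directions. ATF4 itself, at -0.46 (SE 0.19; adjusted p = 0.20), did not pass as deposited and stood at -0.13 without the HT29 NC library; ATF4 protein is set mainly by translation, which these data do not measure.

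Of the other sensors EIF2AK3 differed by 0.43 (log2; SE 0.23; adjusted p = 0.28), ATF6B, the paralog of ATF6, by -0.44 (SE 0.17; adjusted p = 0.18) and ERN2, the IRE1 paralog of mucosal epithelium, by 0.40 (SE 0.39; adjusted p = 0.54). EIF2AK3 stood at 132 to 143 RPKM under the RPL siRNAs in HCT116, against 130 RPKM under NC, and at 124 to 160 RPKM in HT29, against 82.8 RPKM under NC. Without the HT29 NC library EIF2AK3 differed by 0.09, ATF6B by -0.61 and ERN2 by -0.28. ERN2 stood at 0.92 to 2.45 RPKM under the RPL siRNAs in HCT116, against 2.31 RPKM under NC, and at 60.4 to 88.9 RPKM in HT29, against 33.2 RPKM under NC. The extremes of the list were the ER-bound factor CREB3L2 at 1.18 and NFYA, a subunit of the factor that binds CCAAT, at 1.16, and CREB3L4 at -0.75 and NFYB at -0.56. Without the HT29 NC library CREB3L2 turned to -0.08 and NFYA stood at 0.57, while CREB3L4 at -0.68 and NFYB at -0.60 moved little. With the length trend removed NFYA rose by 0.94 and CREB3 by 0.73, and TMBIM6, an ER membrane protein that restrains IRE1, fell by 0.50. Among the relatives outside the ER, HSPH1 at 0.58 and HSPA8 at 0.32 were highest and HSP90AA1 at -0.25 and TRAP1 at -0.14 lowest. None of the relatives passed the threshold as deposited or with the length trend removed. Without the HT29 NC library HSPH1, HSPA8, HSP90AA1 and TRAP1 stood at 0.23, 0.52, -0.29 and 0.06. Which genes of the lists passed in that fit is not given here.

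**Figure D5:**
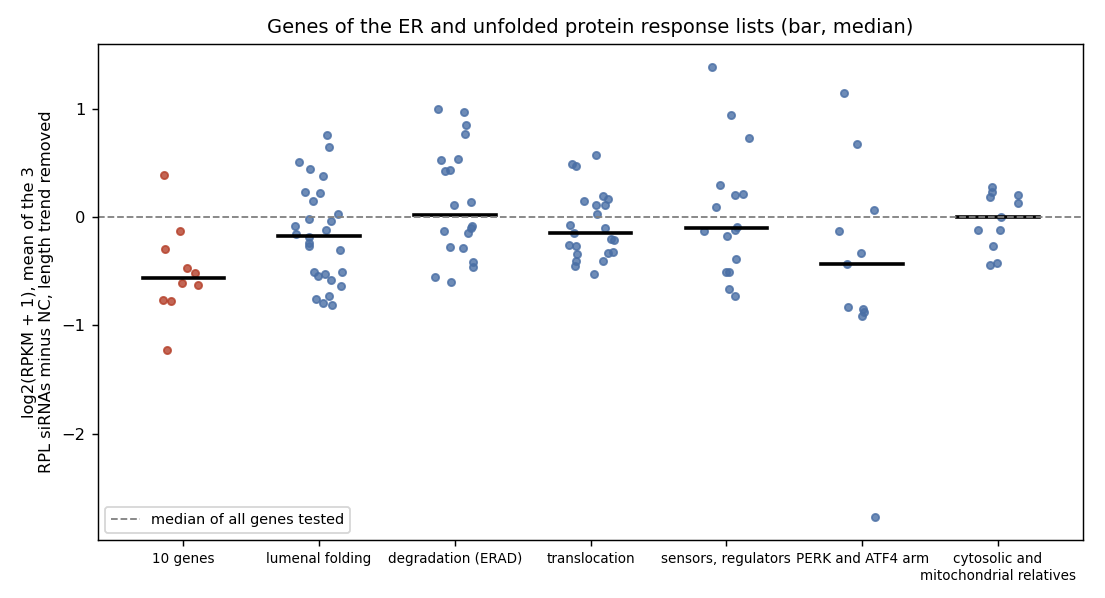
Mean difference of the 3 RPL siRNAs from NC in log2(RPKM + 1) with the length trend removed, 1 point per gene, for the 10 genes and the 6 lists of other ER and unfolded protein response genes; bars are medians and the dashed line is the median of all genes. The median is -0.56 for the 10 genes, -0.44 for the PERK and ATF4 arm, where CHAC1 lies at -2.77, and between -0.17 and 0.02 for the other 5 lists.

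As a description over the 8 libraries, centred by line and sharing the 2 NC libraries, HSPA5 had Pearson correlations of 0.96 with HSP90B1, 0.94 with HERPUD1, 0.92 with XBP1 and 0.89 with PDIA4, and of -0.68 with ERN1. ATF6 went with HYOU1, at 0.87, and SDF2L1 against ERN1, at -0.94, over the same 8 libraries. ATF6 without the length trend had a correlation of 0.95 with HSPA5, against -0.18 as deposited. Over all genes the patterns most like HSPA5 by the same measure were those of SPHAR, GNAS, FZD7, CMAS and TLL2, at 0.99 each, and with the length trend removed those of PLCG2, PARP1, RPL3, MAP4K2 and C1orf151-NBL1.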

How the data were processed

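Libraries were made from total RNA of HCT116 and HT29 cells, 1 per line and siRNA, with a TruSeq RNA kit, per the labels. CASAVA 1.8.2, TopHat2 2.0.9 and genome build hg19 are named in the submitters' processing notes, without their roles. The deposited values are RPKM, 1 per gene symbol and library, computed by the authors; how reads were assigned to genes is not stated in the sources used here, and without strand a gene and its antisense partner cannot be told apart. Counts per gene were not used, and no counting interval is given.

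Values were taken as log2(RPKM + 1), which understates changes of low genes, and 14281 genes, those averaging 1 RPKM or more, were fitted with limma 3.58.1 (trend; robust variances as an alternative with statmod 1.5.0) in R 4.3.3. Terms for siRNA and cell line left 3 residual degrees of freedom. The line difference was the interaction of line with any RPL siRNA (4 residual degrees of freedom). Tests are two-sided, with Benjamini-Hochberg adjustment over all genes tested and a threshold of 0.05. The lines serve as replicates of an siRNA, and siRNAs as replicates of a line, so p-values do not measure the spread between cultures. The alternatives were other pseudocounts (0.1 and 5), no filter, a stricter filter of 5 RPKM, quantile normalization, median-centring, limma without trend, no cell line term, left-out libraries and single lines. A library's trend with transcript length was removed by a spline (5 degrees of freedom) fitted to 14180 genes that have a GENCODE v29 length (18346 genes matched by accession, 554 by symbol, 224 unmatched), and with GC content as a further alternative. The fits were also run on simulated data with a spread set below the residual spread of the real libraries. Those data held no line effect and no length trend. That run therefore does not show how often real changes would be found or missed here.

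The 10 members, the lists and the rules were chosen with earlier results of these data known. Named besides the members are EIF2AK3, ATF6B, ERN2, ATF4 and DDIT3, genes past the threshold, the 2 highest and 2 lowest mean differences of each list, and the 5 genes most correlated with HSPA5. Genes past the threshold after removal of the length trend, and the library values of CHAC1, PDIA5 and ATF3, were chosen after their values were seen. The protein sequences of the members were not used here.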

Additional observations from a re-analysis of the deposited data

Results flagged for a closer look

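Members whose RPL siRNA effect differed between the lines, by the interaction test, were ERN1, ATF6 and SDF2L1, 3 of 10 beside 22.9% of all genes. For ERN1 the difference (HCT116 minus HT29) was -2.13 (log2; SE 0.29; adjusted p = 0.0024), from a mean effect of -0.08 in HCT116 and 2.05 in HT29. For ATF6 it was -0.97 (SE 0.23; adjusted p = 0.020), from -0.38 in HCT116 and 0.59 in HT29. For SDF2L1 it was 1.77 (SE 0.41; adjusted p = 0.019), from 0.04 in HCT116 and -1.73 in HT29. The HT29 values rest on the HT29 NC library, whose values depend on transcript length, and the HT29 means as deposited minus those with the length trend removed were 1.23 for ERN1, 1.20 for ATF6 and -0.52 for SDF2L1. With that trend removed the differences were -0.85 (adjusted p = 0.14), 0.27 (adjusted p = 0.47) and 1.21 (adjusted p = 0.12).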

How the results depend on the processing

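HSPA5, HSP90B1, XBP1, HERPUD1 and PDIA4 kept the direction of their mean difference from NC in 21 of 21 alternatives, from -0.31 for PDIA4 in HT29 alone to -1.49 for HERPUD1 with median-centring. The number of members past the threshold, 0 with all libraries, was 1 with quantile normalization (0.581% of all genes called), 4 with the length trend removed (5.86%), 5 with the length and GC trends removed (7.98%), 7 with HT29 alone (35.1%) and 0 with HCT116 alone (0%), and 0 to 9 over the fits that leave out 1 library, where only those without the HCT116 NC (9; 49%) or HT29 NC library (5; 12.9%) gave a call. For RPL9 siRNA against NC it was 3 with the length trend removed (2.94%), 2 with length and GC (5.39%), and 0 to 8 with 1 library left out; for RPL17 siRNA 0 to 9; for RPL27 siRNA 1 (1.45%), 1 (2.75%) and 0 to 8. The highest of these came without the HCT116 NC library, where 46.6%, 44.5% and 44.9% of all genes passed, in the same order of siRNAs. For RPL9 siRNA against the other two it was 1 in the 6 RPL siRNA libraries (0.816%). With 1 library left out it was 0 to 1, the 1 without the HCT116 NC library (0.716%). For the line difference it was 3 as deposited (22.9%), 0 with the length trend removed (7.9%) and 2 with quantile normalization (21.5%). With length and GC it was 2 (7.57%), HSPA5 and HSP90B1, which did not pass as deposited. With 1 RPL siRNA library left out it was 3 to 4 (17.6% to 22.2%). For HCT116 against HT29 it was 1 with quantile normalization (4.16%), with the length trend removed (7.43%) and with length and GC (8.39%). In the 6 RPL siRNA libraries it was 3 (23.3%). With 1 library left out it was 3 without the HCT116 NC (23.1%) or HT29 NC library (22.9%) and 0 otherwise (1.29% to 1.4%). The fit with no cell line term, that is without the replicate block, called 0 members for the mean contrast and for each siRNA, as the fit with it did.

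In the mean contrast ATF6 changed sign to -0.041 with quantile normalization, -0.092 with median-centring, -0.47 with the length trend removed, -0.50 with length and GC, and -0.38 in HCT116 alone. In HCT116 alone ERN1 changed to -0.075 and SDF2L1 to 0.037, and in HT29 alone DNAJB9 changed to 0.54. HYOU1 changed to -0.18 with median-centring, -0.29 with the length trend removed, -0.24 with length and GC and -0.36 in HCT116 alone. Over the fits that leave out 1 library the mean difference ranged from -0.38 to 0.59 for ATF6, from -0.075 to 2.05 for ERN1, from -0.65 to 0.54 for DNAJB9, from -1.73 to 0.037 for SDF2L1 and from -0.36 to 0.41 for HYOU1, with the ends set by leaving out an NC library. In the line difference HSPA5 changed to -0.036 and HSP90B1 to -0.48 with quantile normalization; XBP1 to -0.13, ATF6 to 0.27, HERPUD1 to -0.060 and PDIA4 to 0.018 with the length trend removed; ATF6 to 0.38 and PDIA4 to 0.020 with length and GC; and PDIA4 to 0.22 with median-centring. With 1 library left out it ranged from -0.056 to 0.12 for XBP1 and from -0.027 to 0.17 for HERPUD1. Between the lines HSP90B1 changed to -0.034 with median-centring and HYOU1 to -0.059 in the 6 RPL siRNA libraries; with 1 library left out DNAJB9 ranged from -0.35 to 0.12, SDF2L1 from -0.11 to 0.55 and HYOU1 from -0.059 to 0.23. The causes were not tested. Depth is known only roughly, so the counting error behind single values is not given.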
